A study of Mus musculus with 14 samples.

Results

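Transcript levels in left ventricles of male C57Bl/6N mice were compared with those of male C57Bl/6J mice, with treatment taken into account as an added factor. The comparison used 7 C57Bl/6N arrays and 7 C57Bl/6J arrays, chosen by the source name in the sample labels. These are all 14 of the 14 arrays in the series. The question was which genes differed between the substrains by about as much in sham-operated hearts as in hearts exposed to angiotensin II. A gene is termed called where the substrain term of an additive linear model (limma) had a Benjamini-Hochberg adjusted p under 0.05. A called gene is termed alike where its difference had the same sign in both treatments and the smaller difference was at least 0.5 of the larger. Of 9408 genes tested, 153 were called, and 98 of these were alike.

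The C57Bl/6N arrays comprised 4 from mice given angiotensin II for 48 h and 3 from sham-operated controls, and the C57Bl/6J arrays likewise comprised 4 and 3. Angiotensin II, the peptide that raises blood pressure through its receptors on vessels and kidney, was delivered from osmotic mini-pumps under the skin. The dose was 500 ng/kg, stated per minute in the series title but per hour in the design description, and no source used here settles it. The labels name no transgene or induced mutation, so the groups differ at every locus that separates the substrains and not at a chosen gene.

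Both substrains descend from the same inbred stock, were separated decades ago, and have since accumulated different mutations. The best known of these is a deletion in Nnt, the mitochondrial enzyme that makes NADPH, which is carried by C57Bl/6J. In heart muscle, secreted and membrane proteins are folded in the endoplasmic reticulum (ER), fatty acids are the main fuel, while the transferrin receptor takes up iron and hepcidin limits its export.

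Between 46.4% and 49.3% of the 18138 gene rows were detected on each array, and the median deposited signal per array lay between 80.8 and 112. The 7 cardiomyocyte markers tested had a summed level of 134000 to 170000 on every array, and 6 of 8 lung and thymus markers were above background on none. Correlations between arrays of the same group were 0.976 to 0.995. Array 1 of the C57Bl/6J angiotensin II group stood apart, with 196 genes more than 1 log2 unit from the rest of its group. The next were array 1 of the C57Bl/6N sham group with 56 such genes and array 4 of the C57Bl/6N angiotensin II group with 27. Nothing in the labels says whether every sample is its own mouse, so the p-values reflect only how much these samples vary.

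In the additive fit 74 genes were higher in C57Bl/6N and 79 were lower. These are 0.787% and 0.84% of the genes tested, 1.63% together, and 1608 genes had an unadjusted p under 0.05. The 98 alike genes comprised 43 that were higher and 55 that were lower in C57Bl/6N, with differences from 1.76 (Rab4a) to -1.51 (Hamp) on the log2 scale. The difference was at least 1.5-fold in 31 of them. No called gene had opposite signs in the 2 treatments. Alike genes made up 64.1% of called genes and 17.5% of all tested genes, which is a description, since the call and the likeness come from the same arrays. All 7 C57Bl/6N arrays lay on one side of all 7 C57Bl/6J arrays for 44 genes (0.468% of those tested), among them 32 called and 23 alike genes.

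**Figure D1:**
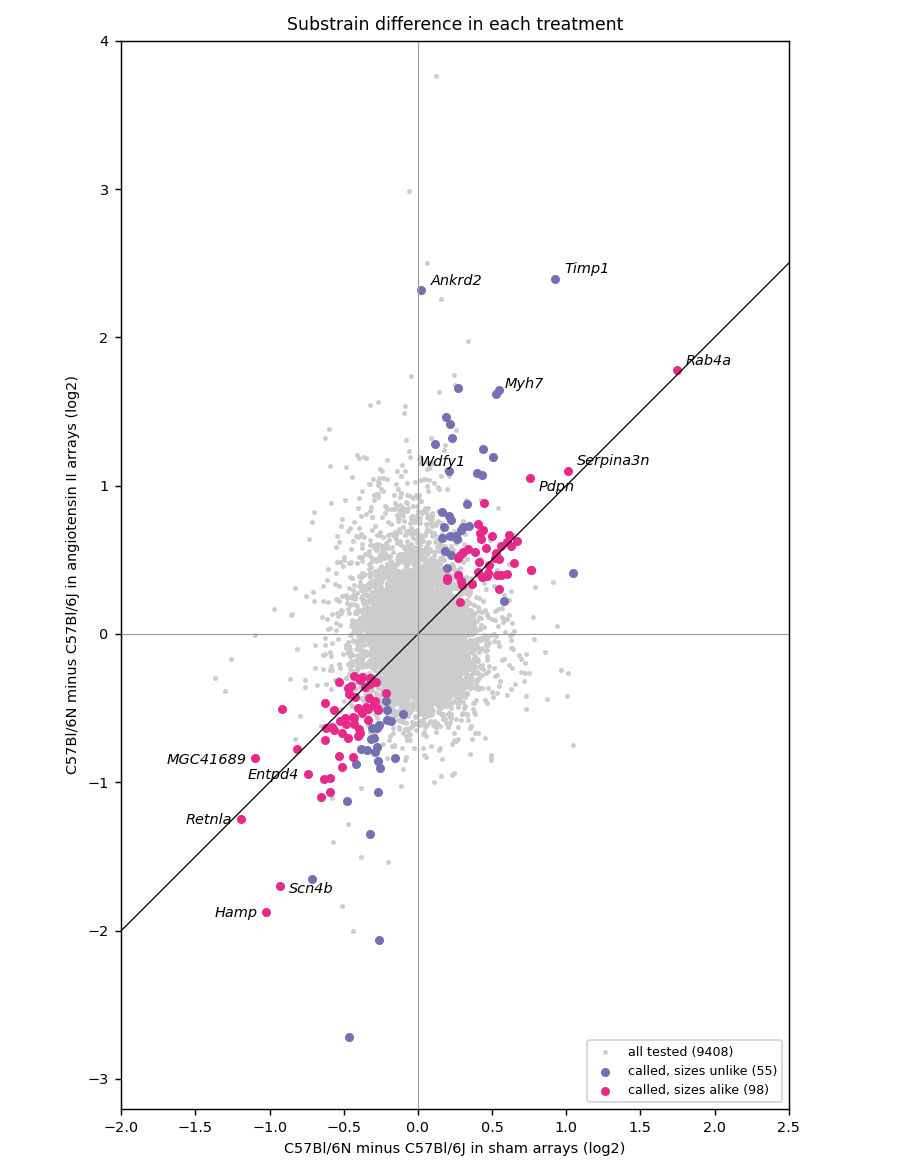
The substrain difference of each tested gene in angiotensin II arrays (vertical axis, log2) is plotted against its difference in sham arrays (horizontal axis, log2), with C57Bl/6N minus C57Bl/6J on both axes. The line marks equal differences. The 98 alike genes lie around it, with Rab4a at the upper end and Hamp, Scn4b and Retnla at the lower end, while most of the 55 other called genes lie farther from zero on the vertical axis.

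Each treatment was also tested alone. In angiotensin II arrays 870 genes (9.25%) differed between the substrains, with 2436 at an unadjusted p under 0.05. In sham arrays 2 genes (0.0213%) did, Rab4a and Entpd4, with 717 at an unadjusted p under 0.05. Both were also called in angiotensin II arrays. The 2 comparisons share no array, and over all 9408 genes their differences had a Pearson r of 0.01 and a Spearman rho of -0.06, given as a description across genes, which are not independent replicates. Of the 870 genes called in angiotensin II arrays, 486 (55.9%) had the same sign in sham arrays, against 47.3% of all tested genes. The interaction, a test of whether the substrain difference itself changed with treatment, called 1 gene (0.0106%), Ankrd2, with 1644 at an unadjusted p under 0.05. Among alike genes, 1 (Scn4b) had an unadjusted interaction p under 0.05.

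Rab4a, a small GTPase of early endosomes that returns internalised receptors to the cell surface, had the largest difference among alike genes. Its normalised log2 signal was 8.49, 8.56 and 8.67 on the C57Bl/6N sham arrays, against 6.86, 6.80 and 6.82 on the C57Bl/6J sham arrays. After angiotensin II it was 8.16, 8.29, 8.01 and 8.44 in C57Bl/6N, against 5.88, 6.70, 6.59 and 6.60 in C57Bl/6J. The lowest C57Bl/6N array thus lay above the highest C57Bl/6J array in either treatment. Rab4a was 3.40-fold higher in C57Bl/6N (log2 difference 1.76 ± 0.11 SE, limma adjusted p = 5.84e-07), with 1.74 in sham and 1.78 in angiotensin II arrays. The treatments differed in this effect by 0.04, with a 95% interval from -0.46 to 0.53. A two-sided exact permutation test that exchanged substrain labels within treatments gave p = 0.00143, the smallest that its 1400 arrangements allow. Rab4a was singled out on these same arrays, so this unadjusted p is no independent support for it. Signal of Rab4a on the outlying C57Bl/6J array 1 was the lowest of all, and without that array its call was kept. Probe sequences were not at hand, so whether a sequence variant between the substrains lies under a Rab4a probe was not tested.

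Entpd4, a Golgi and lysosomal enzyme that hydrolyses nucleoside diphosphates such as UDP, differed in the opposite direction. It measured 11.75, 11.59 and 11.49 on the C57Bl/6N sham arrays, against 12.26, 12.41 and 12.40 on the C57Bl/6J sham arrays. After angiotensin II it measured 11.10, 11.33, 11.25 and 11.36 in C57Bl/6N, against 12.14, 12.09, 12.20 and 12.38 in C57Bl/6J. No C57Bl/6N array reached the level of any C57Bl/6J array. Entpd4 was lower in C57Bl/6N by a log2 difference of -0.86 ± 0.07 (SE; limma adjusted p = 2.56e-05), with -0.74 in sham and -0.94 in angiotensin II arrays (limma adjusted p = 0.0306 and 9.63e-05). Its call in sham arrays alone was lost as some arrays were left out, up to an adjusted p of 0.216 without C57Bl/6J sham array 2. The mouse genome holds a near-identical copy, Entpd4b, for which the table has no row, so the Entpd4 row may hold signal of both.

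**Figure D2:**
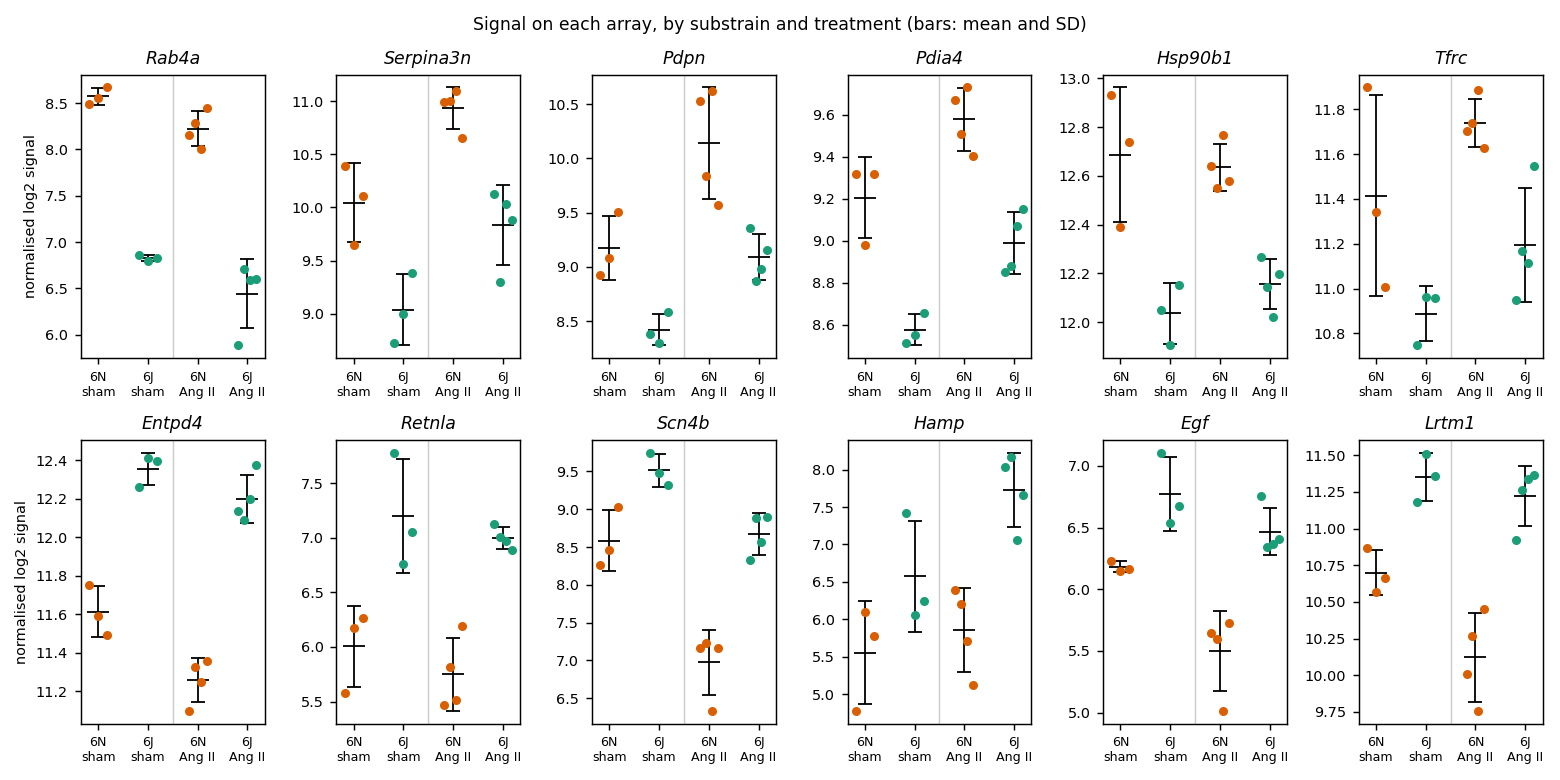
Normalised log2 signal (vertical axis) of 12 genes is shown on each array, with a point for each array and bars for the group mean and SD. Groups run from left to right as C57Bl/6N sham (3 arrays), C57Bl/6J sham (3), C57Bl/6N angiotensin II (4) and C57Bl/6J angiotensin II (4). The C57Bl/6N points of Rab4a, Hsp90b1 and Pdia4 lie above the C57Bl/6J points within each treatment, and those of Entpd4, Retnla and Lrtm1 lie below them.

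Entpd4 belongs to a list of 15 genes at which sequence or copy-number variants between the substrains have been reported. The table has 12 of them, and 6 passed the filter on dim rows. Of these 6, Entpd4 and Wdfy1 were called (33.3%, against 1.63% of all tested genes), Wdfy1 in the direction of higher signal in C57Bl/6N. This list too was chosen with earlier results of these data known, so the share is a description. Wdfy1, an adaptor of endosomal Toll-like receptor signalling, was above background on 5 of 7 C57Bl/6N arrays and on 0 of 7 C57Bl/6J arrays. It was at least 1.28-fold higher in C57Bl/6N (limma adjusted p = 0.00642), and the measured means were 5.88 in C57Bl/6N and 5.09 in C57Bl/6J. Only 1 of 3 C57Bl/6N sham arrays was above background, against 4 of 4 after angiotensin II, so that whether Wdfy1 differed alike in the 2 treatments cannot be read from its signal. Its interaction did not pass after adjustment (limma adjusted p = 0.129). Whether a variant between the substrains lies under the probes of Entpd4 or Wdfy1 was not tested, as probe sequences were not at hand.

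The other tested genes of that list were not called. Their log2 differences were 0.55 for Plk1, a mitotic kinase, -0.45 for Cyfip2, a regulator of the actin-nucleating WAVE complex, -0.31 for Ide, the insulin-degrading enzyme, and -0.06 for the membrane fusion protein Snap29, with limma adjusted p-values of 0.21, 0.179, 0.296 and 0.824. Ide ranged from 9.62 to 9.93 in C57Bl/6N and from 9.46 to 10.49 in C57Bl/6J, so that the C57Bl/6J arrays spread on both sides of the C57Bl/6N arrays. Nnt was above background on 0 of 14 arrays, with signals of 4.58 to 4.68 in C57Bl/6N and 4.57 to 4.64 in C57Bl/6J. Its row combines several probes, and no level of Nnt can be read from it. Crb1, Adcy5, Chl1, Fgfbp3 and Zp2 were likewise above background on none of the arrays and were not tested.

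Several genes that fold proteins in the ER were called higher in C57Bl/6N. Of 20 genes on a list of ER stress and folding, 17 were tested, 4 were called higher and 0 lower (23.5%, against 1.63% of all tested genes). Their median difference was 0.34, against -0.00 over all tested genes, and 12 of 17 were positive. The list median was 0.36 in sham and 0.17 in angiotensin II arrays. The called members were Pdia4, Hsp90b1, Pdia3 and Xbp1, and all but Xbp1 were alike. The list and its members were chosen with earlier results of these data known, so these shares are a description.

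Pdia4, a protein disulfide isomerase that forms disulfide bonds in secreted proteins, measured 9.32, 8.98 and 9.32 on C57Bl/6N sham arrays, against 8.51, 8.55 and 8.66 on C57Bl/6J sham arrays. On angiotensin II arrays it measured 9.67, 9.51, 9.73 and 9.40 in C57Bl/6N, against 8.85, 8.88, 9.07 and 9.15 in C57Bl/6J. Within each treatment every C57Bl/6N array was above every C57Bl/6J array, and the log2 difference was 0.61 ± 0.08 (SE; limma adjusted p = 0.00274). Hsp90b1 encodes GRP94, the HSP90 chaperone of the ER. It measured 12.93, 12.39 and 12.74 on C57Bl/6N sham arrays, against 12.05, 11.90 and 12.15 on C57Bl/6J sham arrays, and 12.64, 12.55, 12.77 and 12.58 in C57Bl/6N after angiotensin II, against 12.27, 12.15, 12.02 and 12.20 in C57Bl/6J. No C57Bl/6N array overlapped the C57Bl/6J arrays, and the difference was 0.55 ± 0.09 (limma adjusted p = 0.00702). Pdia3, the isomerase that works with calnexin and calreticulin on glycoproteins, was higher by 0.42 ± 0.09, with 0.47 in sham and 0.39 in angiotensin II arrays. Pdia3 kept its call in 6 of 14 fits that left out an array, and Pdia4 and Hsp90b1 kept theirs in all 14.

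Xbp1, the transcription factor of the unfolded protein response whose mRNA is spliced by IRE1, was higher by 0.38 ± 0.09 (limma adjusted p = 0.0484). It kept its call in 2 of 14 fits that left out an array. Its difference was larger in sham arrays (0.58) than in angiotensin II arrays (0.22), where array 1 of C57Bl/6J reached 11.15 and the other C57Bl/6J arrays 10.76 to 10.81. Xbp1 and Cdkn1a, the cell-cycle inhibitor p21, were the only called genes outside the alike set with the larger difference in sham arrays. Of the members that were not called, Pdia6 differed by 0.40, Dnajc3 by 0.34, the luminal chaperone Hspa5 (BiP) by 0.39 and Calr by 0.81. In sham and angiotensin II arrays, Pdia6 differed by 0.45 and 0.37, Dnajc3 by 0.57 and 0.17, Hspa5 by 0.61 and 0.23, and Calr by 0.19 and 1.27. Of these, only Pdia6 had a smaller difference at least 0.5 of the larger. The ER stress transcription factors Atf4, Ddit3 and Atf3 differed by -0.05, -0.35 and -1.27 and were not called. Creld2, an ER-resident protein not on the list and chosen after its value was seen, was also alike (0.44, with 0.47 in sham and 0.41 in angiotensin II arrays). The number of called members was 2 to 7 as single arrays were left out. The value 7 came without C57Bl/6N angiotensin II array 4, and the value 2 without C57Bl/6J sham arrays 1 or 2, C57Bl/6N angiotensin II arrays 1, 2 or 3, or C57Bl/6J angiotensin II arrays 2, 3 or 4. It was 2 with median scaling or the macrophage covariate described further on, 0 with the atrial covariate and 8 with array weights.

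The classical ER stress response element consists of CCAAT and CCACG separated by any 9 bases, and is bound by NF-Y and ATF6. It was searched for on both strands in the 250 bases before each RefSeq start (GRCm38.p6). It was present in 37 of 32851 windows (0.113%). All 17 tested list members had a window and 5 held the motif, namely Hsp90b1, Dnajc3, Pdia6, Calr and Hspa5, some of which are the genes in which the element was first described. All 5 had positive differences in the additive fit and 1, Hsp90b1, was called. The differences of Dnajc3, Calr and Hspa5 were unlike in size between the treatments. The windows of the 3 alike members are shown because they moved together, each in the direction of its gene, with motif matches in capitals. They lie at chr6:47813513-47813762 (minus strand) for Pdia4, chr10:86705445-86705694 (minus strand) for Hsp90b1 and chr2:121413652-121413901 (plus strand) for Pdia3.
Pdia4: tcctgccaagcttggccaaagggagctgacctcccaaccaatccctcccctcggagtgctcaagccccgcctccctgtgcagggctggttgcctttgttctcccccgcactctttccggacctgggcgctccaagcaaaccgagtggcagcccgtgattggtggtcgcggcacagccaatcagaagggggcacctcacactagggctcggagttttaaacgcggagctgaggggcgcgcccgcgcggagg
Hsp90b1: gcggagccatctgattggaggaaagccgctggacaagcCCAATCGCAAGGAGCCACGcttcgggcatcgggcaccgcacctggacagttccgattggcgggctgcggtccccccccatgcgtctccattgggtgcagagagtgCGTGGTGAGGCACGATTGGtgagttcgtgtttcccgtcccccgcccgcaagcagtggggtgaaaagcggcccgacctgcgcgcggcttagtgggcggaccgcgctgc
Pdia3: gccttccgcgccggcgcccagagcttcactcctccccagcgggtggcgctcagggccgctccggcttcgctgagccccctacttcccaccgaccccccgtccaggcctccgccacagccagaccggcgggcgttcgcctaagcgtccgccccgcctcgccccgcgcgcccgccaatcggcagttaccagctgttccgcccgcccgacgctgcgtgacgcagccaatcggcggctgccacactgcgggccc
The Hsp90b1 window held 2 matches, the first 212 to 194 bases before the start and the second on the other strand. The Pdia4 and Pdia3 windows held none, which says only that these letters are not in this stretch.

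Among the other alike genes that were higher in C57Bl/6N were several secreted and cell-surface proteins. Serpina3n, a secreted serine protease inhibitor of the acute phase, measured 10.39, 9.64 and 10.10 on C57Bl/6N sham arrays, against 8.72, 9.0 and 9.39 on C57Bl/6J sham arrays. After angiotensin II it measured 10.65 to 11.09 in C57Bl/6N, against 9.29 to 10.12 in C57Bl/6J. The substrains did not overlap within either treatment, and Serpina3n was 2.09-fold higher in C57Bl/6N (log2 difference 1.06 ± 0.15, limma adjusted p = 0.0033). Pdpn, a membrane glycoprotein of lymphatic endothelium and activated fibroblasts, was higher by 0.92 ± 0.16 (0.75 in sham and 1.05 in angiotensin II arrays). Bmper, a secreted protein that binds bone morphogenetic proteins, was higher by 0.65 ± 0.13. Osmr, the oncostatin M receptor subunit, was higher by 0.58 ± 0.11, and Csf2ra, the alpha chain of the GM-CSF receptor, by 0.59 ± 0.13. Of these, Bmper and Csf2ra lost their calls without some single arrays and without the 2 arrays farthest from their groups, whereas Serpina3n, Pdpn and Osmr kept theirs as each array was left out.

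Ddit4, which encodes the mTORC1 inhibitor REDD1, and Fkbp5, a co-chaperone of the glucocorticoid receptor, were also higher. Ddit4 was at 9.61 to 9.75 on C57Bl/6N sham arrays, against 8.75 to 9.41 in C57Bl/6J, and at 10.14 to 10.72 on C57Bl/6N angiotensin II arrays, against 9.36 to 10.07. Its difference was 0.65 ± 0.12 (limma adjusted p = 0.0196). Fkbp5 was higher by 0.57 ± 0.11, with 0.76 in sham and 0.43 in angiotensin II arrays, and its call was lost without C57Bl/6J angiotensin II array 2. Stbd1, which tethers glycogen to membranes, differed by 0.59 ± 0.10, and Slc10a6, a carrier of sulfated steroids, by 0.61 ± 0.15. Tubb5, a beta-tubulin, differed by 0.60 ± 0.13 and Trnp1, a nuclear protein of dividing progenitors, by 0.57 ± 0.13. Fam122b differed by 0.57 ± 0.11, with 7 of 7 C57Bl/6N arrays and 3 of 7 C57Bl/6J arrays above background, and LOC100047339, which keeps the name in the table, by 0.69 ± 0.14. The calls of Slc10a6, Tubb5, Trnp1 and LOC100047339 were each lost as certain single arrays were left out.

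**Figure D3:**
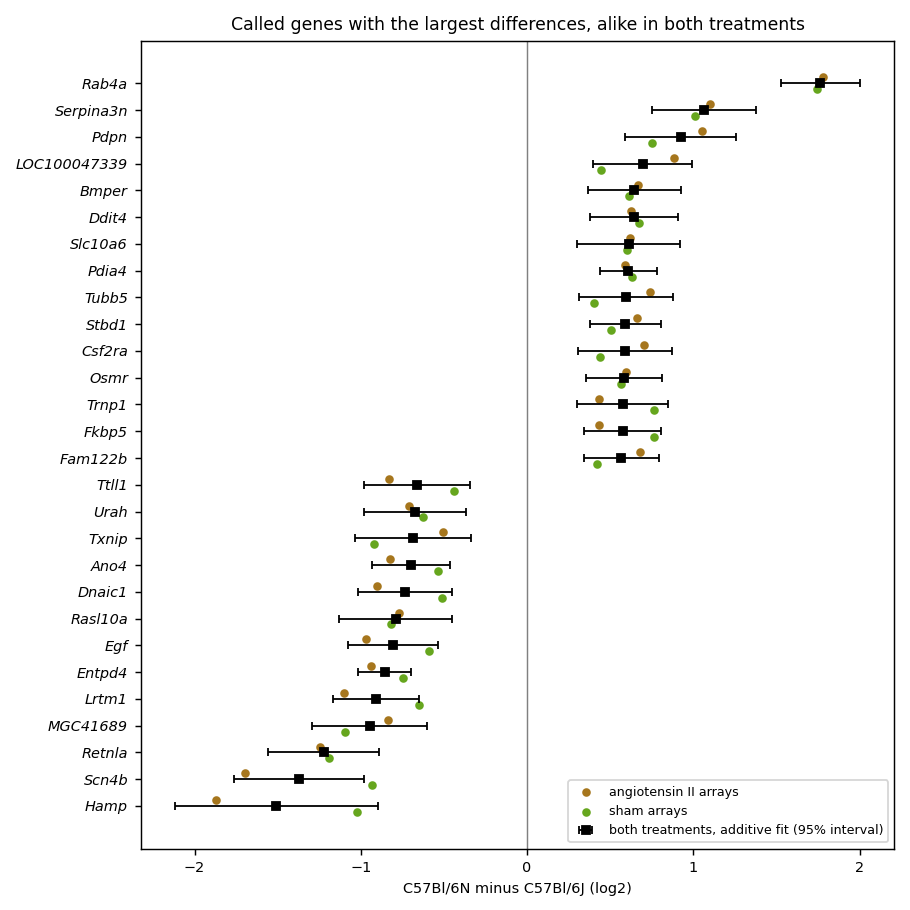
The 15 highest and 13 of the 15 lowest log2 differences (C57Bl/6N minus C57Bl/6J, horizontal axis) among alike genes are shown. Squares give the additive fit with its 95% interval, and circles give the difference in angiotensin II arrays and in sham arrays. Rab4a stands at 1.76 and Hamp at -1.51, and both circles of every gene lie on the same side of zero, which the term alike requires.

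Of the 16 genes on a list of iron and haem handling, 14 were tested, 1 was higher and 1 was lower in C57Bl/6N (14.3% called, against 1.63% of all tested genes), with a median of -0.10. Both called members were alike. Hamp, which encodes hepcidin, the peptide that closes the iron exporter ferroportin, measured 4.78, 6.10 and 5.78 on C57Bl/6N sham arrays, against 7.42, 6.06 and 6.25 on C57Bl/6J sham arrays. On angiotensin II arrays it measured 6.39, 6.21, 5.71 and 5.13 in C57Bl/6N, against 8.04, 8.16, 7.06 and 7.66 in C57Bl/6J. The groups overlapped in sham arrays and not in angiotensin II arrays, and Hamp was above background on 5 of 7 C57Bl/6N arrays. Its difference was -1.51 ± 0.29 (limma adjusted p = 0.0184), and the call was lost without C57Bl/6J angiotensin II array 2. Hamp2, a closely similar paralogue next to it, differed by -0.21 and was not called, and signal shared between the rows was not tested.

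Tfrc, the transferrin receptor that takes up iron, measured 11.90, 11.34 and 11.01 on C57Bl/6N sham arrays, against 10.75, 10.96 and 10.96 on C57Bl/6J sham arrays. After angiotensin II it measured 11.70, 11.74, 11.89 and 11.63 in C57Bl/6N, against 10.95, 11.17, 11.12 and 11.55 in C57Bl/6J. Within each treatment every C57Bl/6N array was above every C57Bl/6J array. The log2 difference was 0.54 ± 0.12 (limma adjusted p = 0.0357), with 0.53 in sham and 0.54 in angiotensin II arrays. The call was lost without any of 8 single arrays, all of those of C57Bl/6J sham, C57Bl/6N angiotensin II arrays 1 to 3 and C57Bl/6J angiotensin II arrays 2 and 3. The iron exporter Slc40a1 and the ferritin heavy chain Fth1 differed by -0.24 and -0.01 and were not called.

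Scn4b, the beta-4 subunit that modulates cardiac sodium channels, was the 1 called gene among 20 tested ion channel and calcium handling genes. This is 5%, against 1.63% of all tested genes, and rests on this gene alone. Scn4b differed as follows. Its signal measured 8.26, 8.46 and 9.03 on C57Bl/6N sham arrays, against 9.75, 9.48 and 9.32 on C57Bl/6J sham arrays. On angiotensin II arrays it measured 7.16, 7.23, 6.33 and 7.16 in C57Bl/6N, against 8.33, 8.88, 8.57 and 8.90 in C57Bl/6J. The substrains were separate within each treatment, and the difference was -1.37 ± 0.18 (limma adjusted p = 0.00274), with -0.93 in sham and -1.70 in angiotensin II arrays. The unadjusted interaction p was 0.0312 and the adjusted value 0.242, so Scn4b is the alike gene for which a difference between treatments came nearest to the threshold. The calcium pump Atp2a2 differed by 0.05 and was not called.

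Retnla, a secreted resistin-like protein of alternatively activated macrophages, measured 5.58, 6.17 and 6.27 on C57Bl/6N sham arrays, against 7.78, 6.76 and 7.05 on C57Bl/6J sham arrays. After angiotensin II it measured 5.47, 5.82, 5.52 and 6.20 in C57Bl/6N, against 7.13, 7.01, 6.97 and 6.88 in C57Bl/6J. No array of C57Bl/6N reached the C57Bl/6J arrays, and Retnla differed by -1.22 ± 0.16 (limma adjusted p = 0.00274), with -1.19 in sham and -1.25 in angiotensin II arrays. Fcna, the lectin ficolin A, and Folr2, the folate receptor of resident macrophages, were named after their values were seen. They were lower by -0.61 and -0.60, both were alike, and the arrays of Fcna did not overlap. The 18 tested macrophage and monocyte markers had a median of 0.31, with 17 positive and 0 called, and their median was -0.12 in sham and 0.61 in angiotensin II arrays. In bulk tissue, fewer cells of a type and less RNA per cell cannot be told apart.

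Lrtm1, a leucine-rich repeat membrane protein, measured 10.57 to 10.87 on C57Bl/6N sham arrays, against 11.18 to 11.51 in C57Bl/6J, and 9.76 to 10.45 on C57Bl/6N angiotensin II arrays, against 10.92 to 11.36. All 7 arrays of C57Bl/6N were below all 7 of C57Bl/6J, with a difference of -0.91 ± 0.12 (limma adjusted p = 0.00274). Egf, the epidermal growth factor precursor, was lower by -0.81 ± 0.13, again without overlap. Ano4, of the anoctamin family of membrane proteins, was lower by -0.70 ± 0.11, and its arrays did not overlap between the substrains either.

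The 15 lowest differences also included genes of less certain signal or call. MGC41689, which keeps the name in the table, was lower by -0.95 ± 0.16 without overlap. Rasl10a, a Ras-like GTPase, was lower by -0.79 ± 0.16, Dnaic1, an intermediate chain of ciliary dynein, by -0.73 ± 0.13, and Urah, an enzyme of uric acid breakdown, by -0.68 ± 0.14. Ttll1, a subunit of the tubulin polyglutamylase, was lower by -0.66 ± 0.15. Dnaic1 was above background on 4 of 7 C57Bl/6N arrays and on 7 of 7 C57Bl/6J arrays. The calls of Rasl10a, Urah and Ttll1 were lost as certain single arrays were left out, the most often for Ttll1, which kept its call in 3 of 14 such fits.

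Of 32 genes on a list of fatty acid uptake and oxidation, 27 were tested, 0 were higher and 2 were lower (7.41%, against 0.84% of all tested genes called lower), with a median of -0.21 that was 0.03 in sham arrays and -0.35 in angiotensin II arrays. Pdk4, one of the called members and the kinase that shuts off pyruvate dehydrogenase, differed by -0.51 ± 0.12 (limma adjusted p = 0.0443) and kept its call in 2 of 14 fits that left out an array. Ucp3, a mitochondrial carrier that rises with fatty acid supply, differed by -0.76 and was not called.

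Txnip, the thioredoxin-binding protein that restrains glucose uptake, was lower by -0.69 ± 0.16, with -0.92 in sham and -0.51 in angiotensin II arrays. It ranged from 11.18 to 11.78 in C57Bl/6N and from 11.46 to 12.70 in C57Bl/6J, and kept its call in 3 of 14 fits that left out an array. Of 21 tested genes of mitochondrial NADPH and glutathione redox, 1 was lower (4.76%, against 0.84% of all tested genes), Cat, the hydrogen peroxide-degrading catalase (-0.30 ± 0.07, limma adjusted p = 0.0299). Of 15 tested targets of the oxidative stress factor NRF2, 1 was lower (6.67%), Ephx1, the microsomal epoxide hydrolase (-0.33 ± 0.07, limma adjusted p = 0.0359). Cat differed by -0.28 in sham and -0.32 in angiotensin II arrays, and Ephx1 by -0.38 and -0.29. Cat kept its call in 7 and Ephx1 in 5 of 14 fits that left out an array, and neither kept it with median scaling. The other redox genes were not called, among them Sod2 at -0.26 and Idh2, which makes mitochondrial NADPH by another route than Nnt, at -0.09. Of 30 tested genes of oxidative phosphorylation 0 were called by limma, with a median of -0.13 and 27 of them negative.

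**Figure D4:**
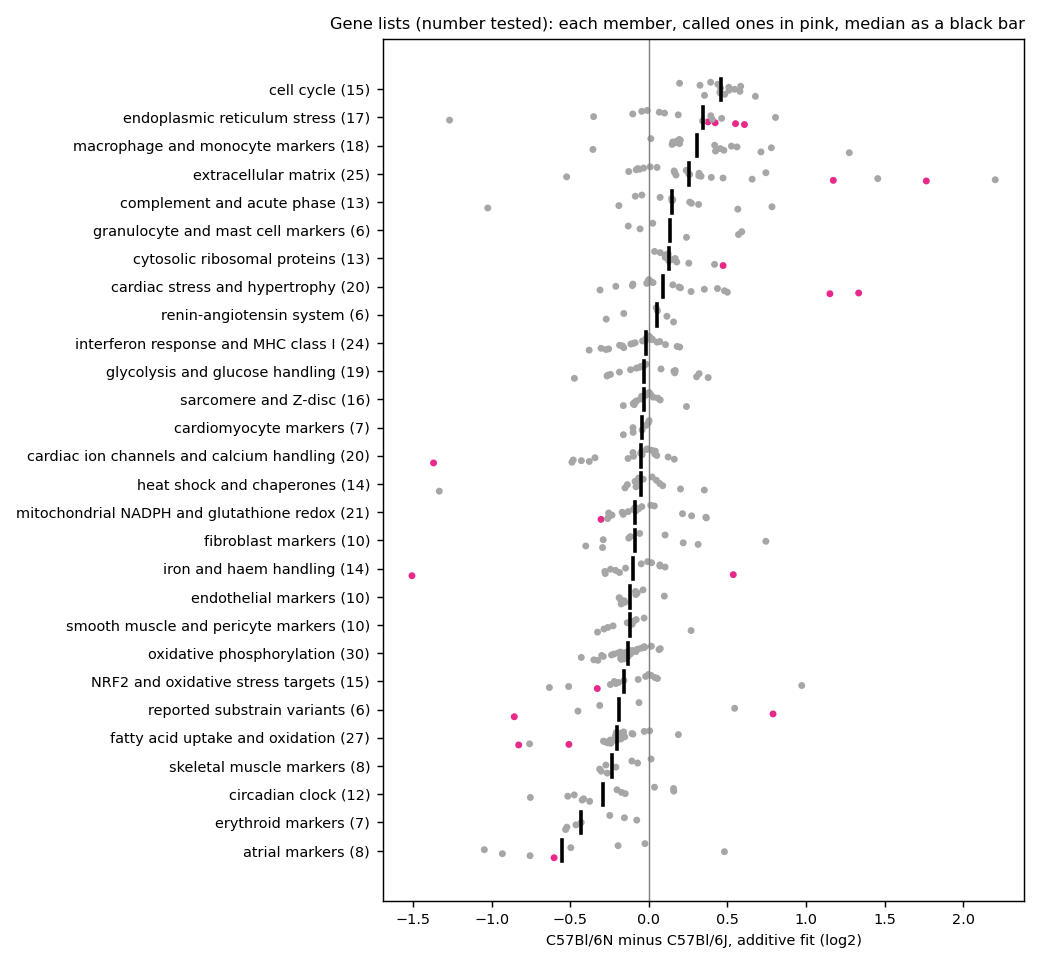
Each point is a tested gene of a list, placed by its log2 difference between C57Bl/6N and C57Bl/6J in the additive fit (horizontal axis). Called genes are pink, black bars are list medians, and the number tested stands beside each name. The ER stress list has 4 called genes on the right and none on the left, and Hamp and Scn4b stand far to the left of their lists.

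Of the 55 called genes that were not alike, 53 had the larger difference in angiotensin II arrays. This describes sizes, and of the 55 only Ankrd2 was called by the interaction. Timp1, Lox, Myh7, Slc15a3 and Irx3 had limma adjusted interaction p-values of 0.237, 0.211, 0.129, 0.24 and 0.225. Timp1, the inhibitor of matrix metalloproteinases, differed by 0.92 in sham and 2.40 in angiotensin II arrays, and Lox, which crosslinks collagen, by 0.55 and 1.64. Myh7, the slow myosin heavy chain re-expressed in stressed ventricles, differed by 0.53 and 1.62. Slc15a3, a lysosomal transporter of peptides and histidine, differed by 0.50 and 1.20, and the homeobox gene Irx3 by 0.35 and 0.73, and their 7 C57Bl/6N arrays all lay above the 7 C57Bl/6J arrays. Tceal8 was higher and 2410137M14Rik was lower, as were Igfals, the acid-labile subunit that carries IGF in blood, and Osbpl6, an oxysterol-binding protein. Rpl3 (0.47) was the 1 called gene among 13 tested ribosomal proteins (7.69%, against 1.63% of all tested genes). All 13 were positive in the additive fit, against 4619 of all 9408 tested genes. Their median was -0.04 in sham and 0.33 in angiotensin II arrays. Rpl3 kept its call in 8 of 14 fits that left out an array, and lost it with median scaling.

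Ankrd2, an ankyrin repeat protein of stretched muscle, was the gene called by the interaction (limma adjusted p = 0.00417). It was at 4.70 to 4.83 on C57Bl/6N sham arrays, against 4.63 to 4.85 in C57Bl/6J, and above background on 0 of these 6. After angiotensin II it was at 7.10 to 7.96 on the 4 C57Bl/6N arrays, against 5.05 to 5.43 on the 4 C57Bl/6J arrays, where it stayed below background. Over both treatments it was at least 1.75-fold higher in C57Bl/6N, with measured means of 6.34 in C57Bl/6N and 5.0 in C57Bl/6J. The sham arrays of both substrains were thus too dim to compare. The interaction count was 0 without background correction, in the authors' deposited value table and with background inferred from all rows. It was also 0 where detection on at least 7 arrays was required, but that filter removed Ankrd2, so this gene was not tested there.

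RefSeq placed 141 of the called genes, and 5 pairs of called genes were neighbours in the order of tested genes. Untested genes may lie between them, and how many pairs 141 genes placed at random would give was not computed. In 4 pairs both genes differed in the same direction. Sla and Ccn4 were higher (0.78 and 0.90), as were Grk5 and Csf2ra (0.48 and 0.59) and Tent5b and Trnp1 (0.86 and 0.57), although Tent5b was above background on 0 of 7 C57Bl/6J arrays and its size is not a measured fold. Dnaic1 and 1110017D15Rik were lower, but on C57Bl/6N angiotensin II arrays Dnaic1 was above background on 1 of 4 and 1110017D15Rik on 0 of 4, so that their sizes there are not measured folds. In the fifth pair Orc6, a subunit of the origin recognition complex, was higher (0.30), and Mylk3, the cardiac myosin light chain kinase, was lower (-0.43), and both were alike. Most of these calls depended on single arrays, with 1110017D15Rik kept in 3, Trnp1 in 4, Orc6 in 5, Tent5b, Ccn4 and Csf2ra in 6 and Mylk3 in 7 of 14 fits that left out an array, and Dnaic1 in all 14. Of these 10 genes, Csf2ra, Dnaic1, Trnp1, Orc6 and Mylk3 were alike.

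Marker lists of cell types differed to unlike degrees. Cardiomyocyte, fibroblast, endothelial, and smooth muscle and pericyte markers had medians of -0.04, -0.09, -0.12 and -0.12, with 0 called. Atrial, macrophage and erythroid markers had medians farther from zero. So had skeletal muscle markers (-0.24, with 7 of 8 negative and 0 called). Lymphocyte (0.37) and conduction and neural markers (-0.32) did too, with 2 tested in each list and 0 called. Of 12 atrial markers, 8 were tested, and 7 of these were negative. Only Stard10 (-0.60) was called (12.5%, against 1.63% of all tested genes), and it was not alike. The atrial myosin light chains Myl7 and Myl4 and the calcium pump regulator Sln differed by -0.93, -0.76 and -1.05, and Bmp10 and Dhrs9 were never above background. The median over the 8 markers, relative to each gene's mean, ran from -0.88 to 0.20 on C57Bl/6N sham arrays, against -0.24 to 0.39 in C57Bl/6J, and from -0.58 to -0.10 on C57Bl/6N angiotensin II arrays, against 0.17 to 0.51. The summed level, to which Nppa contributes, ran from 11300 to 33400 on C57Bl/6N sham arrays, against 17800 to 25600 in C57Bl/6J. On angiotensin II arrays it ran from 47100 to 49900 in C57Bl/6N, against 39100 to 44200 in C57Bl/6J. With the atrial median as a covariate, 2 genes stayed called, Rab4a and Entpd4. In that fit all 98 alike genes kept their sign, with Pdia4 at 0.51 (limma adjusted p = 0.237) and Lrtm1 at -0.87 (limma adjusted p = 0.186). The atrial median separates the substrains in angiotensin II arrays, so that such a covariate also takes up a part of the substrain term, and the part of atrial tissue in the result was not tested beyond this fit.

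The median of the 18 macrophage and monocyte markers ran from -0.56 to -0.19 on C57Bl/6N sham arrays, against -0.32 to -0.16 in C57Bl/6J. On angiotensin II arrays it ran from -0.03 to 0.91 in C57Bl/6N, against -0.12 to -0.06 in C57Bl/6J, with summed levels of 14600 to 32100 against 12500 to 13800. Itgam and Ccr2 were never above background. With that median as a covariate 38 genes were called, 32 of them alike, and 28 of the 98 alike genes stayed called. Erythroid markers had a median of -0.43, with 7 of 7 negative and 0 called, and their summed level was 40200 to 44000 on C57Bl/6N sham arrays, against 46000 to 49900 in C57Bl/6J. On angiotensin II arrays the erythroid sums were 41600 to 49700 in C57Bl/6N, against 43600 to 48800 in C57Bl/6J. The part of these cells in the called genes was not tested beyond these values.

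The number of called genes moved with single arrays. It was 261 without C57Bl/6N angiotensin II array 4, and 60, 71 and 59 without arrays 1, 2 and 3 of that group. It was 50, 67 and 56 without C57Bl/6J angiotensin II arrays 2, 3 and 4, and 88 without C57Bl/6J sham array 2. Without each of the other 6 arrays it was within 1.5 times the value of 153. Of the 98 alike genes, 36 to 95 stayed called as arrays were left out, and all 98 kept their sign in each of these fits. The 98 were selected on these same arrays, so the kept signs are no separate support. Without the 2 arrays farthest from their groups, 194 genes were called, 133 of them alike, and 80 of the 98 stayed called.

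**Figure D5:**
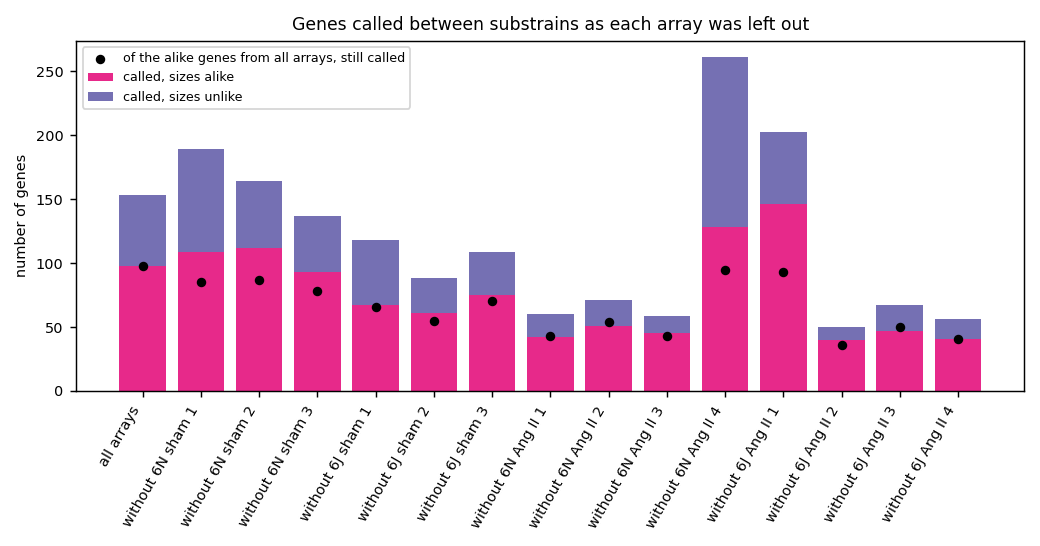
Bars give the number of genes called in the additive fit (vertical axis) with all arrays and as each array was left out, divided into alike and other genes. Points give how many of the 98 alike genes stayed called. The bars range from 50 without C57Bl/6J angiotensin II array 2 to 261 without C57Bl/6N angiotensin II array 4.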

How the data were processed

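Left ventricular RNA of 14 samples was measured on Illumina arrays as biotin-labelled cRNA, per the labels' protocols. The authors deposited linear signal intensities and detection p-values of 18138 gene rows. Their values show that neither background correction nor normalisation between arrays had been applied. They also deposited a value table of 18132 rows whose intensity columns all had a median of 91.6 and matched a quantile normalisation of the deposited intensities. Its scale is thus linear and uncentred. No source used here names the array model, the scanner software or a genome build.

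With limma 3.58.1 in R 4.3.3, intensities were background-corrected by normexp, given an offset of 16, quantile-normalised and put on the log2 scale. In place of control probes, 14215 rows whose detection p-values fell within 0.2% of a step of a grid with 798 steps served to infer background mean and SD per array (60.8 to 74.2 and 11.6 to 18.6). The other rows were taken to combine several probes, among them Slc10a6, Tubb5, Trnp1, Ttll1 and Dnaic1. Rows with detection p under 0.05 on at least 3 arrays were tested, 9408 (51.9%). Above background means a signal no lower than the dimmest detected grid row of that array. Where no array of a substrain was above background, the fold is a bound: the brighter substrain's mean was set against the dim substrain's, each dim array entering with that dimmest detected signal or the row's own, whichever was higher. This applied to 6 called genes. A fold on this scale understates changes of dim genes.

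The additive fit held substrain and treatment (11 residual and 4.49 prior degrees of freedom). A fit of 4 group means (10 and 4.8) gave the differences in each treatment and the interaction. Benjamini-Hochberg adjustment ran over all 9408 genes, and every adjusted p comes from these limma fits. Intervals are 95%, and scripts were tested on simulated data. Replicate numbers follow the sample list and pair nothing. No batch is given. All per-sample columns were used. Precision is limited by how many arrays there are.

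Of the rows, 14309 matched a current symbol and 2662 an older name in RefSeq (GRCm38.p6), and 1167 keep the file's name, as do 12 called genes. Named genes were the 15 highest and 15 lowest alike genes, up to 4 called genes of each list, the reported variants, genes called by the interaction, called neighbours and up to 8 called genes that were not alike. A few genes that this rule covers are not reported here. Others are marked as chosen after their values were seen. Members and lists were chosen with earlier results of these data known, so shares of called list members are descriptions. Alternatives covered background correction, scaling, offset, filters, variance models, array weights, covariates, thresholds and leaving out arrays.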

Additional observations from a re-analysis of the deposited data

Results flagged for a closer look

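In 114 groups of 4 arrays, over the 57 called genes that the naming rule covers, 4 had an array far from the other 3, where chance gives about 1 group in 20. Rab4a was at 5.88 on array 1 of the C57Bl/6J angiotensin II group, and the nearest other array was at 6.59. On the same array Xbp1 was at 11.1, with the nearest other at 10.8, and Egf was at 6.75, with the nearest other at 6.40. These 3 fall on the array with 196 genes more than 1 log2 unit from the rest of its group. Scn4b was at 6.33 on array 3 of the C57Bl/6N angiotensin II group, with the nearest other at 7.16.

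The substrain difference of Ankrd2 differed between angiotensin II and sham arrays by the interaction test (limma adjusted p = 0.00417). Ankrd2 was above background only on the 4 C57Bl/6N angiotensin II arrays. The other groups gave background values, so the size of this change is not a measured fold.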

How the results depend on the processing

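The 153 called and 98 alike genes became 89 called with background inferred from all rows, 620 and 262 with array weights, 2 and 2 with the atrial covariate, and 38 and 32 with the macrophage covariate. An adjusted p under 0.01 left 22 called genes. Asking the smaller difference to be at least 2/3 of the larger left 64 alike genes, and asking for a call in each treatment alone left 2. Quantile normalisation without background correction, the deposited value table, median scaling, an offset of 50, other filters, trend and robust eBayes, the averaged group means and the fit without 2 arrays (chosen after seeing the data) stayed within 1.5 times, at 105 to 194 called genes. The higher share of called genes was 48.4%, 63.2% with the macrophage covariate and 37.1% without those 2 arrays. Sham calls numbered 4 with background from all rows and 30 with array weights, angiotensin II calls 2241 with array weights, and interaction calls 568 with array weights. The interaction count was 0 without background correction, in the deposited value table and with background from all rows. With detection on at least 7 arrays it was also 0, but Ankrd2 did not pass that filter and was not tested. With an array left out, called genes ran from 50 to 261, alike genes from 40 to 146, sham calls from 1 to 4, angiotensin II calls from 202 to 1477 and interaction calls from 1 to 413.

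Of the 57 called genes that the naming rule covers, 2 (Rab4a and Entpd4) stayed called in all 28 settings, 27 in all 14 fits that left out an array, and 0 changed sign. These genes were selected on the same arrays, so the kept signs are a description. Snap29, not called (-0.06), turned to 0.0427 with array weights and 0.0551 without the 2 arrays, and lay between -0.116 and 0.0339 in the fits without an array, with the positive value without C57Bl/6J angiotensin II array 1. The causes were not tested. No paired analysis was possible because the labels give no replicate numbers that link samples. With 3 and 4 arrays a group and dim genes near background, small differences were not detectable.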

Other observations

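Several alike genes that no list holds were chosen here after their values were seen. Tigar, a phosphatase that lowers fructose-2,6-bisphosphate, was lower in C57Bl/6N by -0.63 (-0.62 in sham and -0.63 in angiotensin II arrays), and its arrays did not overlap. Acsl6, an acyl-CoA synthetase, differed by -0.54 and Aqp7, a channel for water and glycerol, by -0.53. Ctf1, the cytokine cardiotrophin 1, differed by -0.44 and Gadd45a, a growth arrest and DNA damage protein, by -0.53. Higher in C57Bl/6N were Igfbp3, which binds insulin-like growth factors, by 0.55, Cxcl14, a chemokine, by 0.51, and Hsd17b7, an enzyme of cholesterol synthesis, by 0.41 without overlap.

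The 12 tested circadian clock genes had a median of -0.29, with 9 negative and 0 called. Dbp, a clock output factor, differed by -1.37 in sham and -0.29 in angiotensin II arrays. The 15 tested cell cycle genes were all positive and 0 were called, with a median of -0.04 in sham and 0.85 in angiotensin II arrays. The labels give no time of day for tissue collection.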
